A study of Equus caballus with 23 samples.

Results

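A set of 144 protein-coding genes of horse muscle was defined by the time at which they were high: near the untrained level after the gallop phase of race training, and higher at the end of the racing season. They were taken from 26991 genes in the count table, of which 8839 were annotated as protein-coding with a symbol. The values that chose them were group medians of log2 CPM, library-size-scaled counts (CPM) on a log2 scale after TMM scaling with a prior count of 2. The T2 median had to be at least 2, it had to exceed both the T0 and the T1 median by at least 0.5, and T0 and T1 had to lie within 0.5 of each other. Symbols that start with NDUF, COX, ATP5, UQCR, PSM, MRP, RPL or RPS were left out, and 6111 genes outside these families had a T2 median of at least 2. Every difference between time points given below for one of the 144 genes is therefore a description of what the choice used and carries no test.

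The samples were 23 libraries from Arabian horses, made from biopsy needle cores of a hindquarter muscle, the gluteus medius. T0 was 5 libraries from untrained horses aged 2.5 years (3 males, 2 females). T1 was 8 libraries from horses aged 3 years that had finished intense gallop work and had not yet raced (4 males, 4 females). T2 was 10 libraries from horses aged 3 years at the close of the flat racing season (7 males, 3 females). The libraries are numbered m1 to m23 with no number shared between time points, and whether horses recur across time points is not stated, so the p-values below measure only how these libraries vary. Age and training status cannot be told apart in any difference from T0. The biopsies are bulk tissue, in which a larger share of cells of a type and more RNA per cell of that type cannot be told apart.

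Many of the genes encode small subunits of machines that every cell runs. Small nuclear ribonucleoproteins build the spliceosome, Mediator carries signals from transcription factors to RNA polymerase II, and small Tim proteins escort precursors across the space between the mitochondrial membranes. Others respond within hours to load, feeding, glucocorticoids or the time of day: in muscle, TRIM63 encodes the ubiquitin ligase MuRF1 of the atrophy program, DDIT4 a brake on the growth kinase mTORC1, and FKBP5 an immunophilin that tunes the glucocorticoid receptor.

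Total counts were 12604125 to 17477172 in T0, 15417737 to 23641809 in T1 and 12185608 to 19804694 in T2. The mitochondrial genome's own transcripts took 36 to 54.9% of counts in T0, 44.7 to 56.7% in T1 and 42.5 to 52.3% in T2. The muscle label was borne out by its markers, with ACTA1 at 9010 CPM or more in each T2 library. All 9 slow fibre markers were called lower and all 8 tested fast fibre markers higher in T2 than in T1, with a slow fibre sum of 8450 to 32400 CPM in T0, 30800 to 133000 in T1 and 10300 to 44300 in T2. The fast fibre sum was 26600 to 54900 CPM in T0, 1270 to 27300 in T1 and 30400 to 65000 in T2. T1 library m3 was unlike the rest: its slow markers exceeded its fast markers by 6.18 in mean log2 CPM, against 2.09 at most elsewhere in T1. No marker of lymphocytes, neutrophils or erythroid cells was among the tested genes. Smooth muscle and pericyte markers summed to 85.2 to 453 CPM in T0, 82.1 to 154 in T1 and 106 to 217 in T2, and of the 7 tested none was called higher in T2, 1 was called lower in T2 minus T1 and 3 were called lower in T2 minus T0. Their part in the results below was not tested.

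For most of the 144 genes the step was small and shared by the T2 libraries. The T2 median exceeded the higher of the other medians by 0.57 on the log2 scale at the median gene, with quartiles of 0.53 and 0.65. It stayed under 0.6 for 91 genes, reached 0.8 for 11 and exceeded 1 for ARMC12 (1.15) and SMARCB1 (1.05). The SD among T2 libraries was 0.28 at the median gene and under 0.4 for 107 genes, but over 0.8 for 11. For 104 genes all 10 T2 libraries lay above the median of the T0 and T1 libraries together, for 83 genes at least 5 T2 libraries lay above every T0 and T1 library, and for 21 genes none did. The choice on T2 medians favours high T2 libraries, and the shares of all tested genes for these counts were not computed. The lowest margins inside the limit belonged to MKKS, COA6 and POMP (0.501 over T1 for each), and TOMM7 (0.498), NSA2 (0.497) and ANP32B (0.496) fell just outside it.

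**Figure D1:**
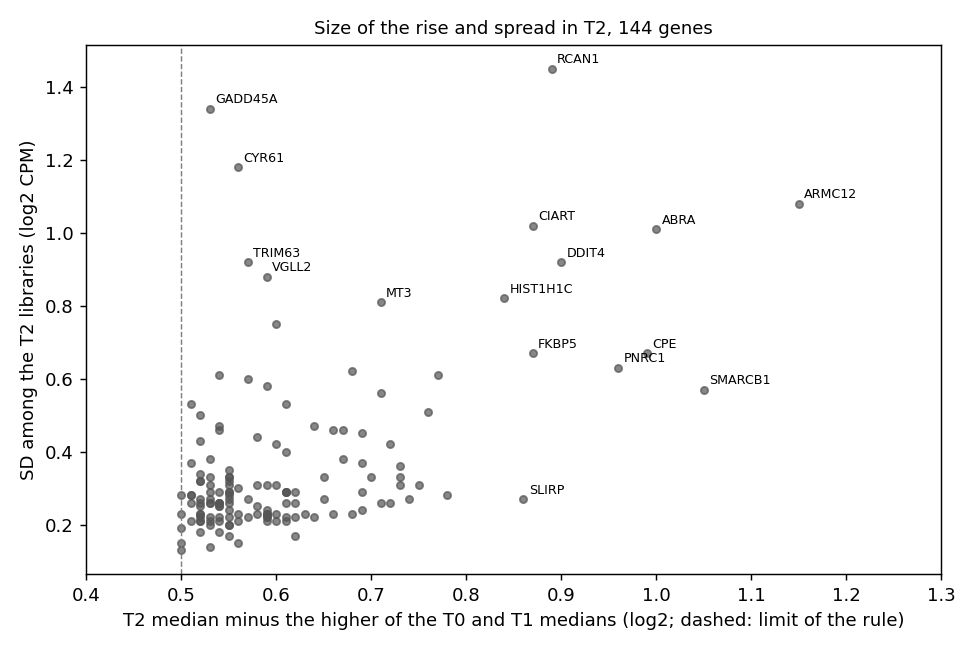
Each point is 1 of the 144 genes; the x axis gives the T2 median minus the higher of the T0 and T1 medians (log2 CPM) and the y axis the SD among the 10 T2 libraries. Most genes cluster at steps under 0.6 and SDs under 0.4, while RCAN1, GADD45A, CYR61 and ARMC12 have SDs over 1 and SMARCB1 and SLIRP combine large steps with smaller SDs.

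All 144 genes were among the 11545 that passed the filter on low counts and were tested with edgeR's quasi-likelihood test. In T2 minus T1, 116 of the 144 were called higher at an adjusted p of 0.05, against 12.6% of all tested genes. In T2 minus T0, 91 were called higher, against 6.73% of all tested genes. In T1 minus T0, 0 were called in either direction by edgeR (2 at an unadjusted p under 0.05, 0 with DESeq2 and 2 with limma voom), against 6.91%. The choice used these contrasts, so the counts describe it. The contrasts with T0 rest on 5 libraries: the count of 91 was 54 without T0 library m9 and 51 without T0 library m13. In both contrasts with T2, 88 genes were called and 25 were called in neither, and the shares of all tested genes for these counts were not computed.

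The libraries differed in how far the whole set was raised. The median deviation of the 144 genes from the T0 and T1 median ran from -0.10 (m13) to 0.21 (m12) in T0. It ran from -0.15 (m7) to 0.30 (m3) in T1 and from 0.35 (m15) to 0.90 (m17) in T2. No T2 library overlapped the others on this summary, although m15 and m3 lay close. The choice of genes on T2 medians favours such a gap. Library m17, from a female, was the highest T2 library for 60 genes, and m15, also from a female, the lowest for 47. Among T1 libraries m3 was the highest for 74 genes, and among T0 libraries m12 was the highest for 79. Without m3 and m12 the same limits chose 170 genes, 122 of them among the 144.

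**Figure D2:**
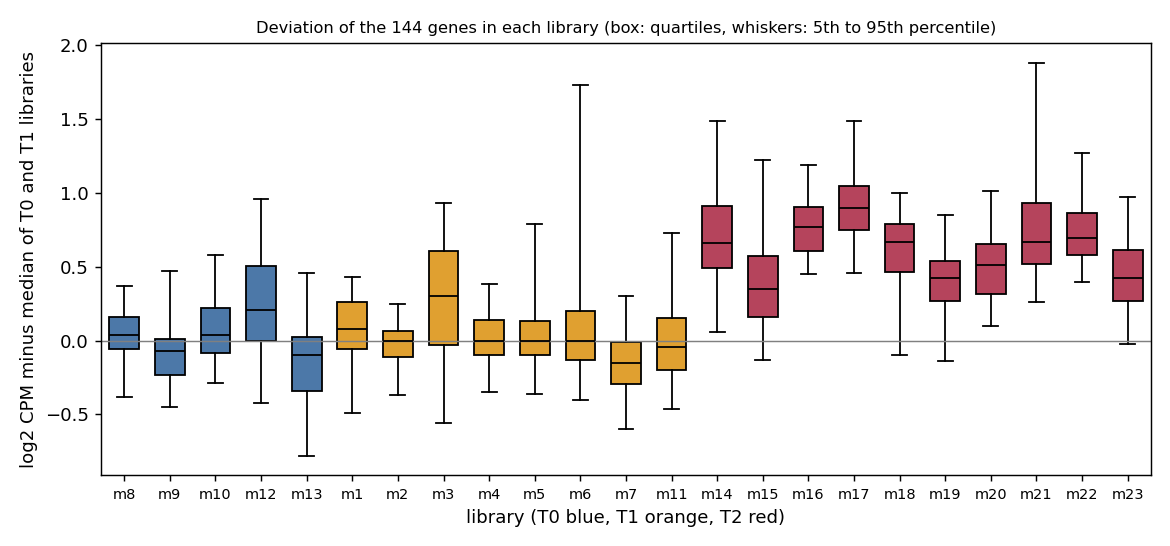
Boxes give the quartiles and whiskers the 5th and 95th percentiles of the 144 genes' deviation (log2 CPM minus the median over T0 and T1 libraries) in each library, T0 in blue, T1 in orange and T2 in red. Medians of T2 libraries lie between 0.35 and 0.90, and m3 and m12 are the highest of their groups at 0.30 and 0.21.

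EMC7 and PAK1IP1, picked out after their values were seen, were the members whose T2 libraries all lay above every T0 and T1 library, as 0.0953% of all tested genes did. EMC7 (ENSECAG00000018499, chromosome 1, 154473173 to 154485474 in the authors' coordinates) encodes a subunit of the complex that inserts proteins into the endoplasmic reticulum membrane. It held 29, 26, 28.9, 37.2 and 27.2 CPM in T0, 26.8 to 30.3 CPM around a median of 28.3 in T1, and 37.3 to 56.2 CPM around 45.9 in T2. The margin was narrow, with m12 at the top of T0 just under m15 and m23 at the bottom of T2. The T2 median was 0.66 above that of T0 and 0.69 above that of T1 on the log2 scale. PAK1IP1 (ENSECAG00000008288, chromosome 20, 10600074 to 10611249), a nucleolar protein of ribosome assembly, held 3.83, 3.19, 4.57, 2.82 and 3.11 CPM in T0, 2.7 to 4.4 CPM around a median of 3.59 in T1, and 4.6 to 6.88 CPM around 5.65 in T2. Its T2 median was 0.80 above that of T0 and 0.64 above that of T1. The margin was narrow here too, with T0 library m10 just under m22, the lowest T2 library.

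Among genes that could have been chosen, 144 of 6111 were in the set, and no role list was tested against that share. Some lists held few: 3 of 254 secretory and vesicle transport genes and 4 of 252 ubiquitin and degradation genes. Transcription factors and chromatin held 5 of 363, and kinases and phosphatases 4 of 245. Transporters and channels held 2 of 213, and immune and interferon genes 0 of 65. Of 177 splicing and mRNA processing genes measured, 10 belonged to the set: the Sm ring proteins SNRPF and SNRPG, the U2 proteins SNRPA1 and SF3B6, LSM2, LSM3 and LSM8 of the ring that binds U6 RNA, the exon junction pair MAGOH and RBM8A, and the exosome subunit EXOSC8. Their steps over the higher median ran from 0.53 to 0.74, and their T2 SDs from 0.2 to 0.29. SNRPG held 28.4, 21.9, 27.5, 30.9 and 23 CPM in T0, 20 to 32.7 CPM around a median of 25.4 in T1, and 31.4 to 54.1 CPM around 42.1 in T2. Its T2 median was 0.61 above that of T0 and 0.72 above that of T1, and 8 of 10 T2 libraries exceeded every other library. LSM3 held 23.4, 16.1, 27.9, 40.5 and 20 CPM in T0, 18.4 to 37.7 CPM around a median of 20.9 in T1, and 29.8 to 49.5 CPM around 35 in T2. For LSM3 the groups overlapped through m12 in T0 and m3 in T1, which exceeded most T2 libraries, and 2 T2 libraries stood above all others. LSM8, named after its values were seen, held 6.4, 4.08, 5.82, 3.97 and 4.34 CPM in T0, 3.63 to 8.02 CPM around a median of 5.2 in T1, and 6.75 to 11.6 CPM around 8.74 in T2, and m3 was the T1 library inside the T2 range. Library m17 was the highest T2 library for 7 of the 10 genes, and m3 the highest T1 library for 9.

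Over the whole splicing list, the 10 genes of the set included, the median shifts were smaller, which the choice of the 10 makes likely. In T2 minus T1, 49 of the 177 genes were called higher and 10 lower (6 without m2 or m6 and 5 without m11), and the median log2 fold change was 0.15. In T2 minus T0, 33 were called higher and 4 lower, with a median of 0.20. Over all tested genes the counts were 1450 higher and 1738 lower in T2 minus T1 (median -0.01), and 777 and 1074 in T2 minus T0 (median -0.03). The 33 and 4 became 20 and 1 without T0 library m9, and 17 and 2 without m13.

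Among 104 genes of the transcription machinery, 8 belonged to the set: the Mediator subunits MED4, MED6, MED8, MED21 and MED31, POLR2J of RNA polymerase II, POLR2K, which all 3 nuclear polymerases share, and POLR1D, shared by polymerases I and III. MED21 held 14, 11.2, 14.5, 18.1 and 12 CPM in T0, 12.3 to 24.3 CPM around a median of 14.6 in T1, and 15.7 to 24 CPM around 21.4 in T2. No T2 library exceeded m3, the highest T1 library, although the T2 median was 0.61 above that of T0 and 0.55 above that of T1. POLR2J (ENSECAG00000022750, chromosome 13, 10127733 to 10131436) held 19.5, 18.9, 17.3, 24.4 and 18 CPM in T0, 15.5 to 30.8 CPM around a median of 18.8 in T1, and 21.4 to 32.2 CPM around 27.1 in T2. Its T2 median was 0.52 above that of T0 and 0.53 above that of T1, with m12 in T0 and m3 in T1 well inside the T2 range. MED4, named after its values were seen, held 8.76, 9.09, 8.21, 11.3 and 10.6 CPM in T0, 6.74 to 10.2 CPM around a median of 9.34 in T1, and 9.12 to 22.8 CPM around 15.2 in T2. Within T2 it spread more than the other Mediator members, and 7 libraries exceeded every T0 and T1 library. In the whole list 27 genes were called higher and 8 lower in T2 minus T1 (median 0.14), the 8 becoming 5 without m1, m4, m5, m7, m11, m16 or m17. In T2 minus T0, 19 were called higher and 2 lower (median 0.17), and leaving out m8, m9, m13, m16, m17, m18, m21 or m22 left 12, 6, 2, 11, 9, 12, 12 or 10 higher, and leaving out m9 left 1 lower.

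In the mitochondrion, 7 of 42 import and inner membrane genes belonged to the set: the small Tim proteins TIMM8B and TIMM9, the twin-cysteine proteins CHCHD1 and CHCHD7, the inner membrane peptidase subunit IMMP1L, and MINOS1 and APOO of the complex that shapes cristae. MINOS1 held 111, 87.2, 91.2, 114 and 72.3 CPM in T0, 81.8 to 147 CPM around a median of 112 in T1, and 116 to 205 CPM around 159 in T2. Its T2 median was 0.80 above that of T0 and 0.51 above that of T1, with m3 the highest T1 library. APOO held 61.7, 52.6, 68, 92.8 and 58.8 CPM in T0, 57.3 to 89.7 CPM around a median of 59.2 in T1, and 67.6 to 118 CPM around 88.3 in T2. T0 library m12 and T1 library m3 reached into its T2 range, and 4 T2 libraries exceeded both. TIMM8B and CHCHD1 were named after their values were seen. TIMM8B held 47.6, 35, 42.3, 34.2 and 28 CPM in T0, 23.4 to 41.2 CPM around a median of 37.4 in T1, and 42.4 to 84.8 CPM around 60.9 in T2, and 9 of 10 T2 libraries exceeded every T0 and T1 library. CHCHD1, a component of the small mitochondrial ribosomal subunit, held 56.8, 47.1, 50.5, 54.3 and 38.3 CPM in T0, 42.6 to 68.5 CPM around a median of 51.4 in T1, and 62.3 to 108 CPM around 84.7 in T2, and 8 T2 libraries did so. In the whole list 9 genes were called higher and 2 lower in T2 minus T1 (median 0.15), and 19 higher and 0 lower in T2 minus T0 (median 0.40). The 9 became 17 without m3, the 2 became 1 without m2, m4, m5, m16 or m22, and the 19 became 31 without m3 and 9 without m13. In T1 minus T0 the list already had 7 genes called higher and 1 lower (median 0.28). The median in that contrast was 0 over the 144 genes and -0.02 over all tested genes.

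SLIRP, which binds and stabilises mitochondrial messenger RNAs (ENSECAG00000000712, chromosome 24, 23005199 to 23011352), had one of the largest steps with a small spread. It held 24.1, 18.9, 21.8, 26.4 and 17.7 CPM in T0, 20.5 to 42.7 CPM around a median of 23.2 in T1, and 25.8 to 46.5 CPM around 42.4 in T2. The T2 median was 0.95 above that of T0 and 0.86 above that of T1, T1 library m3 lay well inside the T2 range, m15 was the lowest T2 library, and 5 T2 libraries exceeded every other. COQ10A, which binds coenzyme Q (ENSECAG00000015874, chromosome 6, 73928162 to 73930477), held 306, 352, 316, 259 and 284 CPM in T0, 195 to 385 CPM around a median of 309 in T1, and 331 to 614 CPM around 522 in T2. Its T2 median was 0.77 above that of T0 and 0.75 above that of T1, 9 T2 libraries exceeded every other library, and m3 was the lowest T1 library, unlike for most of the set. LYRM7, an assembly factor that matures the Rieske subunit of complex III, held 8.39, 5.15, 8.32, 5.84 and 5.89 CPM in T0, 6.15 to 10.1 CPM around a median of 8.15 in T1, and 9.88 to 19.4 CPM around 12.9 in T2, with 9 T2 libraries above all others. COA6, which serves copper delivery to complex IV, held 11.5, 7.36, 9.09, 9.71 and 6.34 CPM in T0, 7.74 to 13.9 CPM around a median of 10.2 in T1, and 11.1 to 18.5 CPM around 14.4 in T2, with a T2 median 0.66 above that of T0 and 0.50 above that of T1. MTFMT, which formylates the mitochondrial initiator tRNA, held 3.95, 2.95, 3.17, 2.4 and 2.72 CPM in T0, 2.2 to 4.28 CPM around a median of 2.88 in T1, and 3.23 to 5.94 CPM around 4.47 in T2, and the groups overlapped.

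**Figure D3:**
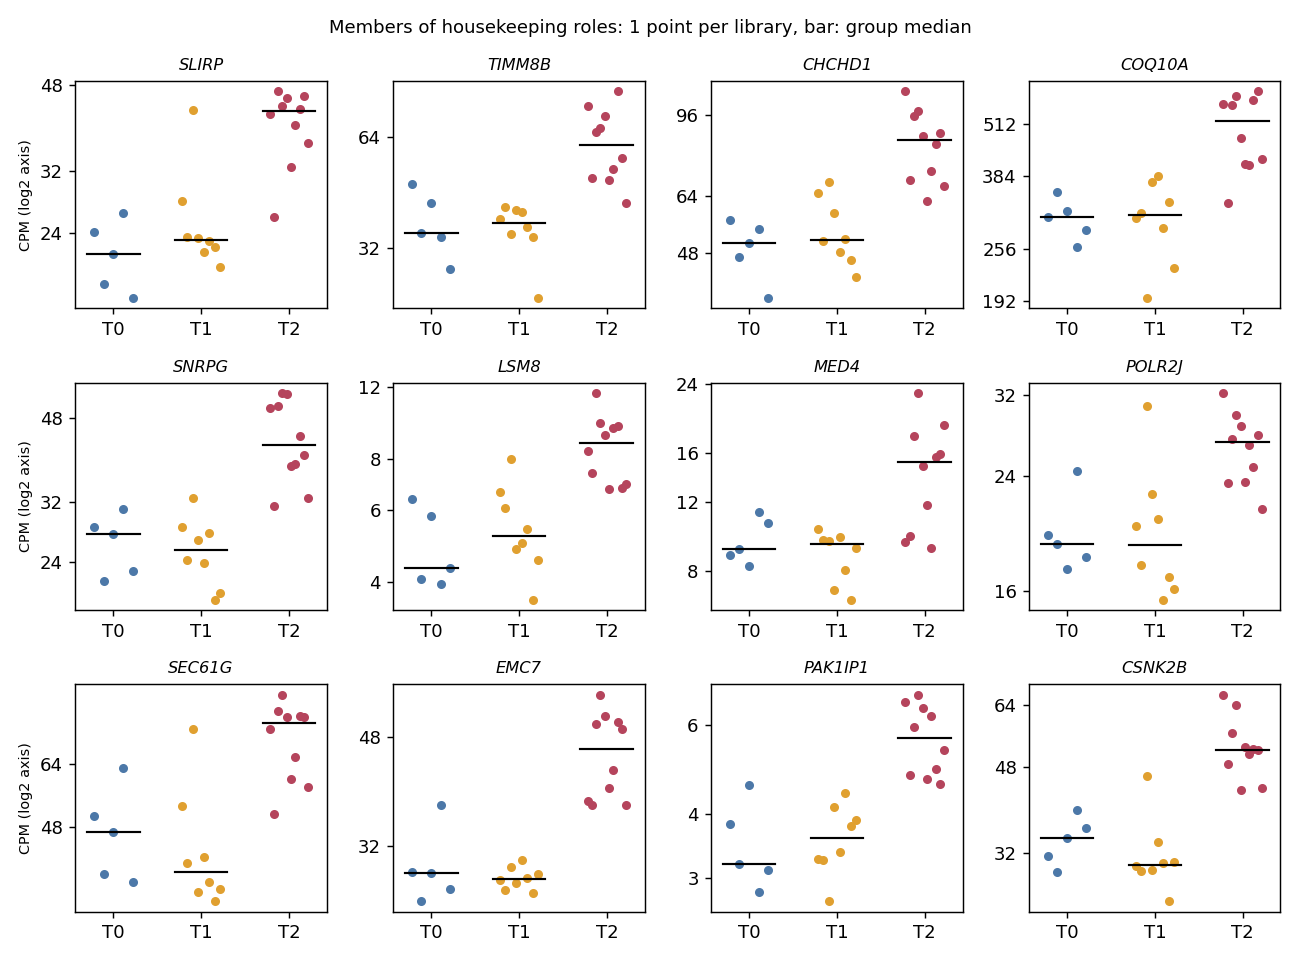
Points are CPM in each library (log2 axis) for 12 genes of mitochondrial, splicing, transcription, secretory and other basic roles at T0 (n = 5), T1 (n = 8) and T2 (n = 10), and bars are group medians. EMC7 and PAK1IP1 have every T2 library above both other groups by a narrow margin, whereas SLIRP, POLR2J and SEC61G have the T1 library m3 well inside the T2 range.

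Of the 252 genes in the families left out by symbol, 26 met the limits on medians: 12 RPL, 5 MRP, 3 NDUF, 2 PSM, 2 RPS, 1 COX and 1 ATP5. In T2 minus T1, 50 of the 252 were called higher and 6 lower (median 0.21), and in T2 minus T0, 106 and 1 (median 0.43). In T1 minus T0, where the 144 genes had a median of 0, these families had a median of 0.22. The 50 became 126 without T1 library m3, and the 106 became 60 without T0 library m9 and 45 without m13.

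Protein synthesis, folding and disposal contributed genes whose groups mostly overlapped. EIF3E, a subunit of initiation factor 3, held 103, 95.5, 115, 188 and 102 CPM in T0, 88.2 to 216 CPM around a median of 109 in T1, and 115 to 192 CPM around 155 in T2, with m12 and m3 at the top of their groups, no T2 library above m3, and no call in any contrast. POMP, the chaperone of proteasome assembly, held 51.7, 44.4, 54.7, 57.9 and 41.1 CPM in T0, 39.3 to 63.9 CPM around a median of 51.8 in T1, and 56.8 to 81.5 CPM around 73.4 in T2, and 8 T2 libraries exceeded every other. TCP1 of the CCT chaperonin held 36.1, 56.1, 43.4, 52.5 and 43.4 CPM in T0, 41.1 to 82.2 CPM around a median of 55.1 in T1, and 57.2 to 103 CPM around 79.4 in T2, and 3 T2 libraries exceeded m3, its highest T1 library. The other folding genes of the set were PFDN4, PFDN5 and PFDN6 of prefoldin, and FKBP5. Of 104 chaperone and folding genes, 20 were called higher and 8 lower in T2 minus T1 (median 0.17), and 26 and 2 in T2 minus T0 (median 0.30). The 20 became 13 without m17, and the 26 became 13 without m9 and 10 without m13. Of 252 ubiquitin and degradation genes, 47 were called higher and 35 lower in T2 minus T1 (median 0.03). In T2 minus T0 the counts were 11 and 18 (median 0.01). Of 71 translation factor and ribosome biogenesis genes, 14 were called higher and 1 lower in each of these contrasts (medians 0.19 and 0.25).

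In the secretory path, DAD1 of the oligosaccharyltransferase held 51.5, 45.9, 58.3, 78.8 and 52.5 CPM in T0, 42.3 to 73.3 CPM around a median of 56.6 in T1, and 61.9 to 103 CPM around 85.2 in T2, and SEC61G of the translocon held 50.4, 38.8, 46.9, 62.8 and 37.5 CPM in T0, 34.3 to 74.9 CPM around a median of 39.1 in T1, and 50.9 to 87.6 CPM around 77.1 in T2. SEC61G had a T2 median 0.71 above that of T0 and 0.98 above that of T1, with m3 and m12 again well inside the T2 range, and 6 T2 libraries exceeded every other for each of the genes. The signal peptidase subunit SEC11C was the remaining member of that list. Of the list's 254 genes, 54 were called higher and 22 lower in T2 minus T1 (median 0.05). In T2 minus T0 the counts were 14 and 17 (median 0.06). Lysosomal members were the proton pump subunit ATP6V1D, the tetraspanin CD63, and LAMTOR2 and LAMTOR5 of the Ragulator complex that anchors mTORC1. CD63 held 50.1, 52.1, 47.6, 67.2 and 57.6 CPM in T0, 44.4 to 75.8 CPM around a median of 50.7 in T1, and 67.5 to 98.3 CPM around 76.6 in T2. Its T2 median was 0.55 above that of T0 and 0.59 above that of T1, and m3 was the highest T1 library for all 4 lysosomal genes.

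Next come the genes with the highest T2 median CPM, a value not corrected for gene length and so no ranking of abundance. YBX3, an RNA-binding cold shock domain protein, had a T0 library, m12, level with its highest T2 library. It held 1880, 1780, 2010, 3940 and 2410 CPM in T0, 1690 to 2290 CPM around a median of 1980 in T1, and 2240 to 3940 CPM around 2910 in T2. TUBA4A, an alpha tubulin, held 283, 375, 452, 436 and 234 CPM in T0, 284 to 600 CPM around a median of 413 in T1, and 372 to 997 CPM around 663 in T2, and UGP2, which makes the UDP-glucose used for glycogen, held 268, 259, 209, 244 and 158 CPM in T0, 249 to 341 CPM around a median of 268 in T1, and 302 to 582 CPM around 392 in T2. UGP2 exceeded every T0 and T1 library in 7 T2 libraries, with a T2 median 0.68 above that of T0 and 0.55 above that of T1. PPP1R27, a protein phosphatase 1 regulatory subunit, held 248, 211, 284, 233 and 191 CPM in T0, 164 to 302 CPM around a median of 206 in T1, and 263 to 635 CPM around 369 in T2, with m14 the highest. AKR1B1, the aldose reductase, held 114, 99.6, 99.1, 172 and 97.5 CPM in T0, 81.5 to 165 CPM around a median of 97.4 in T1, and 80.8 to 170 CPM around 146 in T2, so that T0 library m12 exceeded every T2 library. BCL6, a transcriptional repressor, held 97.2, 122, 85.1, 172 and 89.8 CPM in T0, 68.2 to 146 CPM around a median of 98 in T1, and 109 to 182 CPM around 142 in T2, and HINT1, a nucleotide-binding hydrolase, held 86.4, 77.4, 112, 127 and 87.2 CPM in T0, 81.2 to 160 CPM around a median of 86.3 in T1, and 108 to 180 CPM around 132 in T2. Both overlapped across groups: the T2 range of BCL6 held T0 libraries m9 and m12 and T1 libraries m3, m5 and m6, and that of HINT1 held T0 libraries m10 and m12 and T1 library m3.

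CSNK2B, the regulatory subunit of casein kinase 2, held 31.5, 29.2, 34.3, 39.1 and 35.9 CPM in T0, 25.5 to 45.9 CPM around a median of 30.3 in T1, and 43.1 to 67.3 CPM around 52 in T2, and 8 T2 libraries exceeded every other library. ARPC2 of the Arp2/3 actin complex held 81.5, 72.6, 70.3, 105 and 73.1 CPM in T0, 72.3 to 105 CPM around a median of 80.8 in T1, and 85 to 160 CPM around 119 in T2, and 6 T2 libraries did so. TUBB4A, a beta tubulin, held 4.48, 4.26, 5.2, 2.71 and 2.56 CPM in T0, 2.08 to 6.08 CPM around a median of 4.38 in T1, and 5.8 to 10 CPM around 7.63 in T2, with a T2 median 0.82 above that of T0 and 0.78 above that of T1 and 9 T2 libraries above all others. Reads from near-identical copies can be shared for TUBA4A, TUBB4A, MT3 and HIST1H1C, so their values are uncertain. SMARCB1, a core subunit of the SWI/SNF remodeller (ENSECAG00000007797, chromosome 8, 2667211 to 2699829), had the largest step among the genes called in both contrasts. It held 5.38, 3.94, 3.27, 3.44 and 3.28 CPM in T0, 3.44 to 7.69 CPM around a median of 3.91 in T1, and 3.59 to 10.3 CPM around 8.23 in T2. The T2 median was 1.23 above that of T0 and 1.05 above that of T1, m21 was the lowest T2 library and lay inside the T0 range, and 6 of 10 T2 libraries exceeded every T0 and T1 library.

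ARMC12 had the largest step of the set at low counts. It held 1.3, 1.27, 1.72, 5.22 and 2.45 CPM in T0, 0.733 to 5.71 CPM around a median of 2.41 in T1, and 1.54 to 16.1 CPM around 5.54 in T2, with a T2 median 1.60 above that of T0 and 1.15 above that of T1. Its T2 libraries ran from inside the T0 range up to m17 at 16.1 CPM, and it was called in neither contrast. CPE, carboxypeptidase E of the secretory granule, held 2.08, 8.06, 2.75, 1.67 and 0.556 CPM in T0, 0.906 to 3.68 CPM around a median of 1.77 in T1, and 1.27 to 6.28 CPM around 4.24 in T2. T0 library m9 exceeded every T2 library of CPE. HIST1H1C, a linker histone, held 1.26, 2.01, 4.83, 1.88 and 4.62 CPM in T0, 1.63 to 6.57 CPM around a median of 2.21 in T1, and 1.02 to 5.8 CPM around 4.04 in T2, and its groups overlapped throughout. PRDX4, a peroxiredoxin of the endoplasmic reticulum, had the smallest T2 SD of the set, 0.13. It held 11.6, 11.3, 12.5, 17.6 and 11.1 CPM in T0, 7.38 to 13.3 CPM around a median of 10.8 in T1, and 13.7 to 18.1 CPM around 16.5 in T2, with m12 inside the T2 range.

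A smaller group had a wide spread among T2 libraries. The 11 genes with a T2 SD over 0.8 were ABRA, ARMC12, CIART, CYR61, DDIT4, GADD45A, HIST1H1C, MT3, RCAN1, TRIM63 and VGLL2. Of these, 4 were called higher in T2 minus T1 and 1 in T2 minus T0, against 12.6% and 6.73% of all tested genes. In 7 of the 11 genes m14, m15 or m21 was the highest T2 library. Without these 3 libraries the same limits chose 227 genes, 126 of them among the 144. The genes named in the following paragraphs outside the naming rule, GADD45A, VGLL2, IFRD1 and PDE4B, were picked after their values were seen.

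CIART, a repressor of the circadian clock (ENSECAG00000010349, chromosome 5, 46738059 to 46741203), held 12.8, 9.09, 9.04, 8.87 and 10.7 CPM in T0, 6.14 to 14 CPM around a median of 10.9 in T1, and 11.8 to 92.1 CPM around 20 in T2. The high libraries were m14 at 92.1 CPM and m21 at 69.9 CPM, the next being m17 at 32.8 CPM, and 7 T2 libraries exceeded every T0 and T1 library. The T2 median was 1.13 above that of T0 and 0.87 above that of T1, and CIART was the member of this group called in both contrasts. Sampling times of day are not given in the sources used here.

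TRIM63 held 44.2, 63.2, 47, 52.4 and 24.5 CPM in T0, 43.4 to 104 CPM around a median of 45.6 in T1, and 41.3 to 252 CPM around 69.6 in T2. Library m21 (252 CPM), m14 (225 CPM) and m15 (130 CPM) were high, and the other T2 libraries lay within the range of T0 and T1, whose top was m6. GADD45A, a stress-induced growth arrest gene, held 5.13, 5.39, 3.53, 3.13 and 9.06 CPM in T0, 2.13 to 6.18 CPM around a median of 3.93 in T1, and 2.17 to 34.8 CPM around 7.46 in T2, and m14 (34.8 CPM) and m21 (30.9 CPM) were again the high libraries. The remaining 8 T2 libraries of GADD45A lay between 2.17 and 8.04 CPM, within the T0 and T1 range. DDIT4 held 8.35, 5.15, 5.56, 5.32 and 4.95 CPM in T0, 1.95 to 7.19 CPM around a median of 4.43 in T1, and 3.72 to 24.7 CPM around 10 in T2, with m21, m17 and m15 the highest and m20 and m23 the lowest in T2, the last at the level of the low T1 libraries. FKBP5 held 35.9, 27.2, 11.9, 95.5 and 64.7 CPM in T0, 16.7 to 70.2 CPM around a median of 31.4 in T1, and 32.5 to 136 CPM around 65.8 in T2. It was already spread in T0, where m12 exceeded all T2 libraries but m21, and it was called in neither contrast although the T2 median was 0.87 above that of T0 and 1.06 above that of T1. Of 35 growth, atrophy and myogenic genes, 4 were in the set (TRIM63, DDIT4, GADD45A and IGFBP6), and the list was called higher for 4 and lower for 8 genes in T2 minus T1 (median -0.17), and for 1 and 9 in T2 minus T0 (median -0.19). The 4 became 2 without m1, m2, m3, m4, m5, m14, m15 or m21 and 1 without m7 or m11. The 1 became 0 without m1, m2, m5 to m10, m13, m16 to m18, m21 or m22, and 2 without m20 or m23, and the 9 became 5 without m10 and 4 without m13.

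For ABRA, VGLL2, RCAN1 and CYR61, grouped here after their values were seen, single or a few libraries were far above the rest of their time point. ABRA, an actin-binding protein of striated muscle (ENSECAG00000015998, chromosome 9, 51517001 to 51526650), held 101, 78.6, 91.6, 58.5 and 41.6 CPM in T0, 46.4 to 800 CPM around a median of 69.5 in T1, and 48.7 to 575 CPM around 157 in T2. The highest library of all was m6 in T1 (800 CPM), followed by m15 in T2 (575 CPM), while m19, at 48.7 CPM, was near the lowest T1 libraries. T1 libraries m11 (323 CPM) and m5 (219 CPM) also lay above the T2 median of ABRA. VGLL2, a muscle cofactor of TEAD factors, held 14.4, 13.7, 12.4, 17.7 and 8.29 CPM in T0, 10.1 to 75 CPM around a median of 17.1 in T1, and 10.2 to 93.6 CPM around 25.4 in T2, with the same pair on top, m15 at 93.6 CPM and m6 at 75 CPM. T1 library m11 (46.5 CPM) also lay above the T2 median of VGLL2. RCAN1, an inhibitor of calcineurin, held 2.89, 3.8, 2.18, 3.34 and 2.56 CPM in T0, 2.6 to 15.3 CPM around a median of 3.59 in T1, and 2.45 to 60.8 CPM around 6.85 in T2. In T1 the libraries m5 (15.3 CPM), m6 (13.1 CPM) and m11 (12.5 CPM) were high and the others lay between 2.6 and 3.68 CPM. In T2 the highest library was m15 at 60.8 CPM, and the next was m20 at 18.5 CPM. CYR61, a matricellular protein of the immediate early response, held 5.25, 4.45, 9.04, 10.6 and 2.34 CPM in T0, 2.1 to 62.3 CPM around a median of 5.56 in T1, and 1.38 to 27 CPM around 8.31 in T2, and the T1 library m6 exceeded every T2 library.

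The difference of medians and the fitted difference of means parted where m6 was extreme. The fitted log2 fold change of T2 minus T1 was -0.34 for CYR61 and -0.45 for PDE4B, opposite in sign to the medians. For ABRA and IFRD1 it was 0.01 and 0.09, and the fitted T1 minus T0 of ABRA was 1.41 ± 0.71 (SE). CYR61, PDE4B, ABRA and IFRD1 were called in no contrast. PDE4B, a cyclic AMP phosphodiesterase, held 32.1, 13.3, 26.1, 52.6 and 32.3 CPM in T0, 19.2 to 269 CPM around a median of 32.9 in T1, and 26.8 to 94.4 CPM around 49.5 in T2. IFRD1, a transcriptional coregulator of muscle differentiation, held 45.7, 55.1, 68.9, 34 and 42.7 CPM in T0, 24.7 to 220 CPM around a median of 46.3 in T1, and 32.4 to 97.7 CPM around 65.4 in T2, and PNRC1, a nuclear receptor coactivator, held 22.4, 18.8, 37.6, 76.7 and 31.7 CPM in T0, 19.8 to 131 CPM around a median of 35.1 in T1, and 30.4 to 112 CPM around 66.6 in T2. In each of them m6 exceeded every T2 library. Library m6 was the highest T1 library for 25 of the 144 genes.

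**Figure D4:**
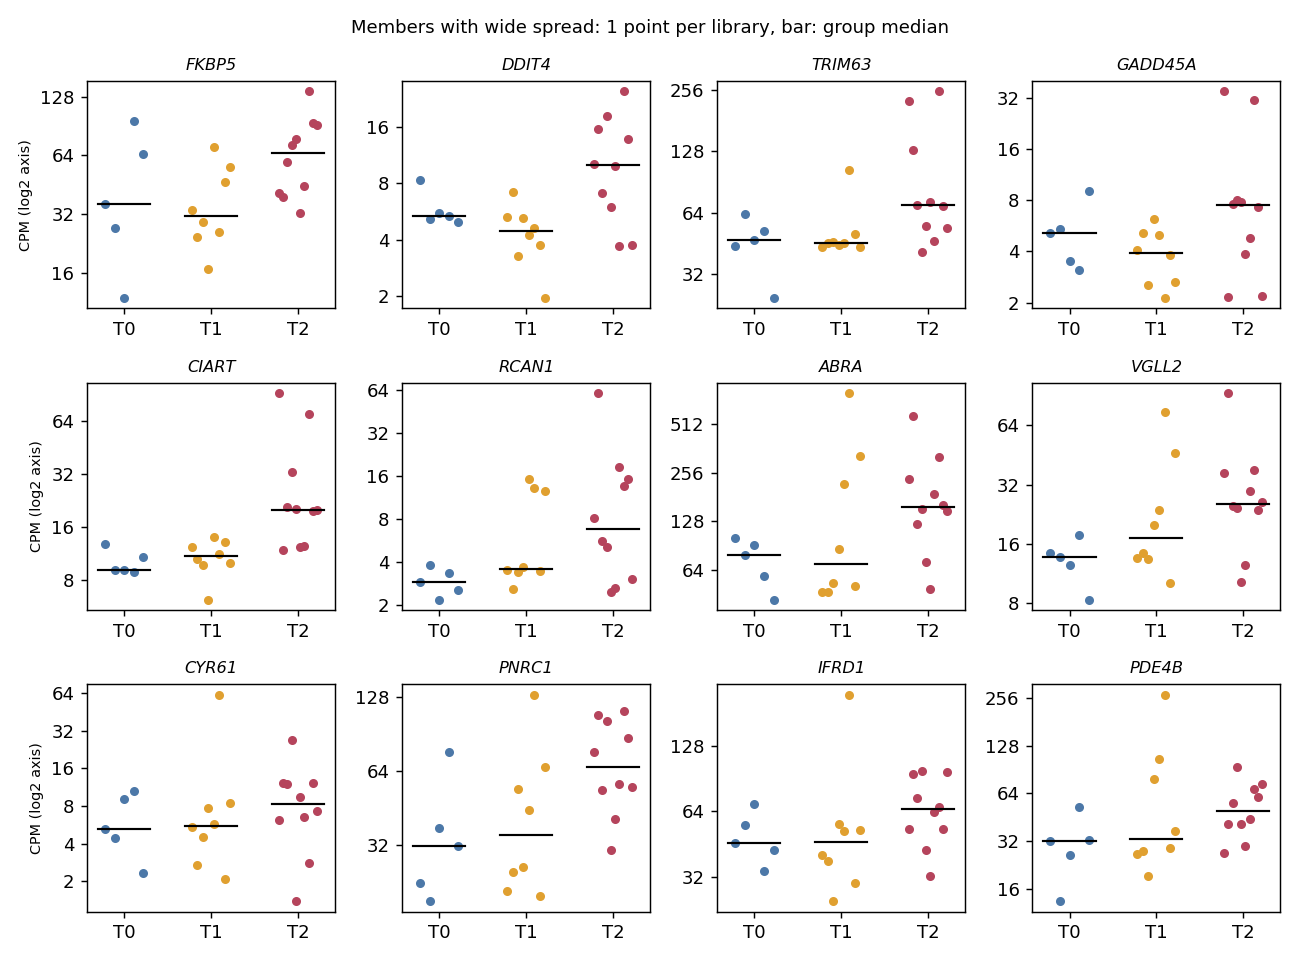
Points are CPM in each library (log2 axis) for 12 genes with wide spread at T0 (n = 5), T1 (n = 8) and T2 (n = 10), and bars are group medians. A few libraries carry the high T2 values (m14 and m21 for CIART and GADD45A, m15 for RCAN1, ABRA and VGLL2), and 1 T1 library, m6, lies at or above the T2 range for ABRA, CYR61, PNRC1, IFRD1 and PDE4B.

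The smooth muscle gene TAGLN, an actin-binding protein named after its values were seen, was also in the set. It held 17.3, 95.8, 27.4, 24.9 and 13 CPM in T0, 14.2 to 35.9 CPM around a median of 26 in T1, and 21.4 to 55.1 CPM around 44.1 in T2, and T0 library m9 exceeded every T2 library. Among the other markers of that cell type, RGS5 was called lower in both contrasts with T2, and CSPG4 and PDGFRB were called lower in T2 minus T0. ACTA2 had medians of 47.4, 39.4 and 56.1 CPM in T0, T1 and T2.

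Sex was not used by the choice and could be tested. In a model of time point and sex no gene was called among the 144, nor among all 11545 (0% called). At an unadjusted p under 0.05 there were 13 of the 144 genes, against 6.23% of all tested genes, and all 13 were lower in males: ABRA, CCNL1, CLK1, DDIT4, GFPT2, GLMN, IFRD1, IGFBP6, METTL1, PNRC1, SAT1, TRA2A and VGLL2. The count depended on single libraries: it was 5 without m15, 7 without m1, m6 or m23, 8 without m7 or m18, and 29 without m17. GFPT2, which starts the hexosamine pathway, had the smallest p, with a male minus female log2 difference of -0.76 ± 0.23 (SE, p = 0.0033, adjusted p = 0.615 by edgeR). ABRA differed by -1.18 ± 0.46 (SE, adjusted p = 0.776 by edgeR), and its highest libraries, m6 and m15, were both from females. CLK1, a kinase of splicing factors, differed by -0.31 ± 0.10 (SE, adjusted p = 0.645 by edgeR). Library m6 was the highest T1 library for 11 of these 13 genes. DESeq2 called 12 and limma voom 3 genes of all tested for sex, none of them among the 144.

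Whether the difference between T2 and T1 itself differed by sex was tested with an interaction term. Among the 144 genes 0 were called, and 0% of all tested genes. At an unadjusted p under 0.05 there were 4, against 1.55% of all tested genes: ZNF593, RHBDD2, DDIT4 and LLPH. This count was 2 without m3, 7 without m14 or m22, 8 without m7, 15 without m15, and 8 with limma voom. For DDIT4 the step was smaller in males by 1.16 ± 0.51 on the log2 scale (SE, interaction -1.16, adjusted p = 1 by edgeR). DESeq2 called 3 genes of all tested, none among the 144. Only 3 of the 10 T2 libraries came from females, and with male libraries alone the same limits chose 154 genes, of which 74 were among the 144.

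The 144 genes spanned less of the genome than other genes. Their span in the annotation had a median of 8.52 kb (quartiles 3.71 and 19.2), against 22 kb (8.52 and 52.4) for the 6111 genes that could have been chosen. In 5 bins of the tested genes by span, from the shortest (0.066 to 5.28 kb) to the longest (59.8 to 1140 kb), 5.7, 3.47, 1.78, 1.34 and 0.666% of the genes that could have been chosen were in the set. Over all annotated tested genes the median log2 fold change of T2 minus T1 fell along the same bins, from 0.11 through 0.09, 0.03 and -0.04 to -0.16, and that of T2 minus T0 from 0.15 to -0.17. In T1 minus T0 the bins lay between -0.03 and 0.03. With the trend on span removed in each library, the same limits chose 124 genes, 81 of them among the 144. SNRPG, SMARCB1, CIART and SLIRP kept steps of 0.512, 1.094, 0.69 and 0.762, while CD63 and POLR2J had 0.322 and 0.273. The part of span or of RNA quality in the steps was not tested.

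**Figure D5:**
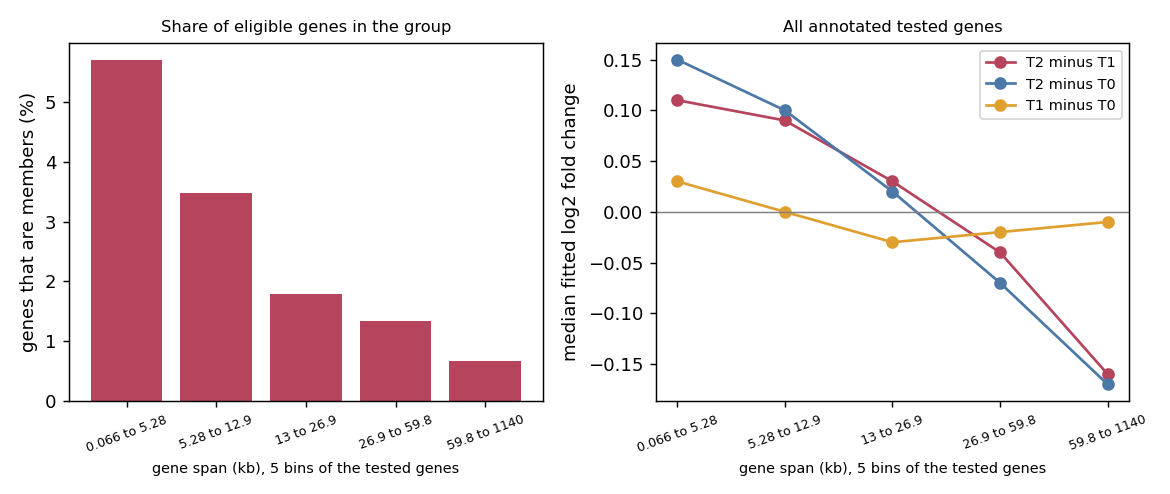
Left, the share (%) of genes that could have been chosen that are among the 144, in 5 bins of tested genes by span (kb); right, the median fitted log2 fold change of all annotated tested genes in the same bins for the 3 contrasts. The share falls from 5.7 to 0.666%, and both contrasts with T2 decline with span while T1 minus T0 stays within 0.03 of 0.

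Some of the genes lie near each other. In the authors' coordinates 13 pairs were at most 200 kb apart. ALG5 and EXOSC8 were separated by 1.19 kb on chromosome 17, C1orf54 and CIART by 5.81 kb on chromosome 5, and HINT1 and LYRM7 by 10.4 kb on chromosome 14. DDIT4 and ANAPC16 lay 26.9 kb apart on chromosome 1, and FKBP5 and ARMC12 lay 75.1 kb apart on chromosome 20. PRDX4, SAT1 and APOO lay within 18023563 to 18172224 on the X chromosome. C1orf54 was, like CIART, highest in m14 among T2 libraries. Annotations of 8 of the genes overlapped another gene (BRI3, IMMP1L, MAP1LC3A, POMP, PPP2R3C, SNRPG, TMEM251 and UCHL1), and reads of overlapping genes cannot be told apart without strand.

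The level of every gene relative to the others depends on the scaling. TMM factors had medians of 1.39 in T0, 0.916 in T1 and 1.02 in T2. On total counts without TMM, the median of all genes was shifted by -0.36 in T2 minus T0 and by -0.46 in T1 minus T0, and by 0.10 in T2 minus T1. On that scale the medians over the 144 genes were 0.24, -0.49 and 0.74 in the same order, and 134 of them still had T2 above both other groups. The limits then chose 16 genes, 12 of them among the 144, and the steps of SAT1 (-0.177) and ZBTB8OS (-0.005) turned negative and that of BCL6 was 0.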

How the data were processed

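Single-end libraries were made with a TruSeq RNA kit, per the labels' protocols, and no source says whether counting used strand. The submitters' processing notes name FastQC, STAR, RSEM and DESeq2, with no versions. For the genome build, none of the sources used here gives a name. The authors deposited expected counts per gene, which are whole numbers in the file, and tables that pair gene identifiers with symbols, biotypes and coordinates. The labels mention technical repetitions without saying how they were combined. The chosen genes, the 22 role lists and the marker lists were all picked with earlier results of these data known, and a few genes (CEBPZOS, ZBTB8OS, APOO) entered a list by the start of their symbol. Counts were filtered with filterByExpr (minimum count 10, minimum total 15) and scaled by TMM. They were fitted in edgeR 4.0.16 (robust quasi-likelihood, R 4.3.3) with 3 time points, or with time point and sex, or with their interaction, and p-values were adjusted by Benjamini-Hochberg at 0.05. CPM used TMM-scaled library sizes, and counting error adds to their spread at low counts. Named genes were the 12 with the highest T2 median, the 12 with the largest step, the 2 highest of each role list and those nearest the limit, with 1 gene of the set not reported here, and others are said to be chosen after their values were seen. Alternatives were median ratio factors, no TMM, no filter, a prior count of 0.5, group means, thinned counts, males alone, DESeq2 1.42.0, limma 3.58.1 voom, sex as a covariate, 2 time points alone and each library left out. The test was checked on simulated data for T2 minus T1 among 11438 genes. It recovered 96% of 2-fold and 99% of 4-fold changes, with 8 false calls. The changes were placed only in genes above a floor on average log2 CPM, which genes such as ARMC12 and CPE lie under. No simulated library was made to stand apart as m3, m6 and m12 did. The test's recovery of smaller steps, such as the median step of 0.57 on the log2 scale among the 144 genes, was not tested. RefSeq symbols matched 133 of the 144 genes, and no sequence was read. Figures used matplotlib 3.10.9.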

Additional observations from a re-analysis of the deposited data

Results flagged for a closer look

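For the genes reported from the naming rule, the 5 T0, 8 T1 and 10 T2 libraries were searched for single values far from the rest of their group, in 147 combinations of gene and group. Chance marks about 1 in 20 groups, and 15 were marked, 5 in T0, 10 in T1 and 0 in T2. Values here are log2 CPM. T0 library m12 was far above the other T0 libraries for AKR1B1 (7.43, next 6.84), ATP6V1D (4.34, next 4.09), EIF3E (7.55, next 6.84) and PRDX4 (4.15, next 3.66), and T0 library m8 for DDIT4 (3.08, next 2.5). T1 library m3 was far above the other T1 libraries for CD63 (6.25, next 5.82), CSNK2B (5.53, next 5.08), HINT1 (7.32, next 6.57), SLIRP (5.42, next 4.81) and SMARCB1 (2.96, next 2.32). T1 library m6 was far above the others for CYR61 (5.96, next 3.1), SAT1 (4.29, next 2.74) and TRIM63 (6.7, next 5.66). CIART was far lower in T1 library m4 (2.64, next 3.3), and TUBB4A in T1 library m11 (1.13, next 1.99).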

How the results depend on the processing

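The limits chose 144 genes. They chose 93 with group means in place of medians (71 shared), 16 on total counts without TMM (12 shared) and 227 without m14, m15 and m21 (126 shared), the last chosen after seeing the data. Median ratio factors, a prior count of 0.5, thinned counts and male libraries alone gave 156, 147, 135 and 154. Leaving out each library in turn gave 114 (without m17) to 200 (without m15) genes, and 64 of the 144 were chosen in all 23 of these sets. Calls among the 144 ranged over the left-out libraries from 109 to 123 in T2 minus T1, from 51 to 105 in T2 minus T0 and from 0 to 1 in T1 minus T0, and were 0 for sex and for the interaction in each case. The calls in T1 minus T0 were 2 with limma voom. The left-out families had 37 to 126 genes called higher in T2 minus T1 and 45 to 150 in T2 minus T0. In T2 minus T0, DESeq2 called 3 growth and atrophy genes higher in place of 1. Of the steps of named genes under each alternative, 1564 moved by less than the SD of T2, 33 moved more, and 3 reversed, all on total counts without TMM: SAT1 (-0.177), ZBTB8OS (-0.005) and BCL6 (0). The causes were not tested. No paired analysis was possible because the sources used here do not say which libraries, if any, came from the same horse. The depth limits genes near the minimum, such as ARMC12 and CPE.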
